A study of Rattus norvegicus with 32 samples.

Results

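Trib3, Ddit3, Asns, Chac1 and Atf3 are genes that the transcription factor ATF4 switches on in the integrated stress response, and they were followed here in the hippocampus of a rat model of Alexander disease. The tables list 23822 Ensembl identifiers without names, and a gene was taken up if its symbol stood beside an identifier in the Extended Data tables of differential expression. That rule gave 4 of the 5 genes: Trib3 (ENSRNOG00000007319), Asns (ENSRNOG00000007546), Chac1 (ENSRNOG00000014387) and Atf3 (ENSRNOG00000003745). Ddit3, which encodes the transcription factor CHOP, had no identifier there and has no value below. The Extended Data tables are sorted by FDR and held a symbol for 3314 identifiers, or 13.9% of all, so a gene with an identifier was already selected for a difference between the genotypes, and the tests of the members are no independent evidence of one.

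R237H rats are Gfap+/R237H, heterozygous for a missense mutation in Gfap, the gene of the astrocyte filament protein GFAP, on the Crl:CD(SD) Sprague Dawley background, and their littermates without the mutation (WT) were the controls. Rats were collected at postnatal day 21 (P21) or 56 (P56). Each sex had 4 R237H and 4 WT rats at P56, males had 4 and 4 at P21, and females had 5 R237H and 3 WT rats at P21, which makes 32 rats in 8 groups. No rat served in more than 1 of the 4 comparisons between the genotypes. The hippocampus was sequenced whole, so more cells of a type and more RNA per cell cannot be told apart.

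The integrated stress response begins when a kinase that senses misfolded protein, amino acid shortage, viral RNA or haem shortage phosphorylates the translation factor eIF2. General translation slows while the mRNA of ATF4 is translated more, and ATF4 then raises genes for amino acid supply, for redox defence and, with CHOP, for the shut-off of the response. Trib3 encodes a pseudokinase that binds and restrains ATF4 and CHOP, Atf3 a transcription factor of the same family as ATF4, Chac1 an enzyme that breaks down glutathione, and Asns the enzyme that makes asparagine.

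The binding letters of ATF4 with its C/EBP partners are often written as TGATGNAA, and the upstream windows of the members show where such letters lie. RefSeq windows (build GRCr8) of the 250 bases before the start were found by symbol for Trib3, Chac1, Asns and Ddit3, and none was listed for Atf3. Trib3 (chr3:161275534-161275783, minus strand) and Chac1 (chr3:126795881-126796130, plus strand) each held 1 match, written below 5′ to 3′ along the gene with the match in capitals. Both matches lie on the strand opposite to the gene, as TTACATCA at 21 to 14 bases before the start of Trib3 and as TTGCATCA at 167 to 160 bases before the start of Chac1.
Trib3: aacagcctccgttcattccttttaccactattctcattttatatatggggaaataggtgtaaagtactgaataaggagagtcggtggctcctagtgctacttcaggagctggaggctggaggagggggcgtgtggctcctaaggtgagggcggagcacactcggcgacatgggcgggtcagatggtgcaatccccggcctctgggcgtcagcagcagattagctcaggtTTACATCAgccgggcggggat
Chac1: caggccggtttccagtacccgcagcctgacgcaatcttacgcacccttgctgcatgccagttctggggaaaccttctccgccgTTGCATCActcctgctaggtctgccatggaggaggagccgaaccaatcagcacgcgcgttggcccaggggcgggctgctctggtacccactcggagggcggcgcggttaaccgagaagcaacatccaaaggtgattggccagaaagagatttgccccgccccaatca
The windows of Asns and Ddit3 held no match on either strand. The motif was found in 3.4% of the 33469 windows of that length, and the cyclic AMP response element TGACGTCA, found in 1.59% of them, was in none of the 4 and so overlapped no match. A match describes letters in a window of another build than the files may use, and no binding was measured.

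Levels per rat are given as CPM, counts scaled to a common library size after TMM normalisation over all 32 rats. Gfap, read as a check of the labels, had 493 to 1082 CPM in WT and 3120 to 6989 CPM in R237H rats, although the tables hold no counts by allele. The hippocampal neuron genes Prox1 and Neurod6 were present in every rat, and their sum was lower in R237H rats in males at P56, at 147 to 201 CPM against 291 to 439 CPM in WT. Neurod6 was decreased there, at -0.89 (FDR = 0.00154), and Prox1 had -0.42 (FDR = 0.0606). In the other comparisons neither gene was called. Females at P56 had sums of 148 to 296 CPM in R237H against 272 to 348 CPM in WT rats. There Prox1 had -0.51 (FDR = 0.0565) and Neurod6 -0.53 (FDR = 0.0448). At P21 the sums were 268 to 302 against 314 to 348 CPM in males, and 238 to 355 against 289 to 307 CPM in females. Cell type markers moved along with the members. The 7 microglia genes summed to 195 to 275 CPM in WT and 760 to 1100 CPM in R237H males at P56, with 6 of 7 increased, and to 221 to 231 and 547 to 655 CPM in males at P21, with 7 of 7 increased. In females the WT and R237H ranges were 211 to 265 and 787 to 964 CPM at P56, and 208 to 215 and 492 to 735 CPM at P21, each with 6 of 7 increased. None of the 7 was at 0. These marker genes also had their identifiers from the Extended Data tables, and so were already selected for a genotype difference. Among all tested genes with a symbol, the increased share for males was 57.4% at P56 and 53.5% at P21. For females it was 59.8% and 32.8%, and nothing is read from the distance of the microglia counts to these shares. The 3 blood genes were lower in R237H rats at P56, at 19.1 to 37.7 against 209 to 500 CPM in males and 22.5 to 24.9 against 119 to 231 CPM in females, and none was called at P21. The neuron gene Rbfox3 was decreased in males at P56 at -1.05 (FDR = 0.00392), and had -0.71 (FDR = 0.0641) in females at P56. The 4 choroid plexus genes exceeded 100 CPM in sum in 5 rats, 3 WT and 2 R237H, and reached at most 46.7 CPM in the other 27. The part of these tissues in the members' values was not tested. With any 1 of those 5 rats left out, Trib3, Atf3 and Chac1 stayed increased in the comparison concerned.

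Trib3 was near the limit of detection in WT rats and plainly expressed in every R237H rat. In males at P56, WT rats had 0.147, 0.117, 0 and 0.0721 CPM, from 7, 6, 0 and 3 counts, and R237H rats had 17.3, 13.4, 20.3 and 20 CPM, from 813, 770, 1191 and 548 counts. In females at P56, WT rats had 0.622, 0.244, 0.202 and 0.208 CPM and R237H rats 17.6, 15.5, 23.9 and 21.6 CPM. The WT male with 0 counts could have had up to 0.0752 CPM, the level of 3 counts there. The R237H ranges of the sexes overlapped, while every WT female lay above every WT male. At P21 the WT males had 0.108, 0.116, 0.17 and 0.116 CPM and the R237H males 8.64, 8.14, 4.08 and 5.63 CPM. The 3 WT females of that age had 0.155, 0.325 and 0.0263 CPM, and the 5 R237H females had 8.58, 10.4, 10.6, 10.4 and 6.27 CPM. No R237H rat came near a WT rat at either age, the lowest R237H value being 4.08 CPM and the highest WT value 0.622 CPM.

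Trib3 was increased in all 4 comparisons by edgeR's quasi-likelihood F-test, in which a gene was called at an FDR under 0.01. Its log2 fold change was 7.64 (SE 0.41, FDR = 1.13e-06) in males at P56, which placed it at rank 5 among 15097 genes ordered by fold change, and 5.92 (SE 0.33, FDR = 6.02e-07) in females at P56, at rank 14 of 15033. At P21 it was 5.69 (SE 0.31, FDR = 8.51e-08) in males, at rank 15 of 14953, and 5.71 (SE 0.45, FDR = 2.34e-05) in females, at rank 24 of 15149. In females at P21 it ran from 5.25 without WT replicate 3 to 6.58 without WT replicate 2. The WT denominators were small, with 16 counts in the 4 WT males at P56 against 55 in the 4 WT females, so the fold changes are less firm than the levels.

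Atf3 followed a similar pattern on a higher WT level. WT males at P56 had 0.692, 2.29, 0.802 and 0.553 CPM and the R237H rats 42.7, 36.6, 46.3 and 43.9 CPM. In females at P56 the WT rats had 1.89, 1.34, 2.96 and 1.64 CPM and the R237H rats 33.6, 42.5, 42.5 and 49.3 CPM. The sexes overlapped within each genotype, and 1 WT male stood apart at 2.29 CPM. At P21 the WT males had 0.95, 0.832, 0.593 and 0.89 CPM and the R237H males 23.4, 24.6, 18.1 and 16.2 CPM. The WT females at P21 had 0.597, 0.801 and 0.315 CPM and the R237H females 20.6, 26.1, 24.9, 24.5 and 19.4 CPM. The lowest R237H rat, at 16.2 CPM, was above the highest WT rat of either age, at 2.96 CPM.

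The log2 fold change of Atf3 was 5.28 (SE 0.41, FDR = 8.45e-06) in males and 4.40 (SE 0.24, FDR = 5.61e-07) in females at P56, and 4.66 (SE 0.18, FDR = 6.84e-09) in males and 5.32 (SE 0.27, FDR = 1.86e-06) in females at P21. The WT male at 2.29 CPM also carried the most RNA of choroid plexus genes (1807 CPM summed over 4 genes). Without it the log2 fold change in males at P56 was 5.98, and the part of that tissue in the value was not tested.

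**Figure D1:**
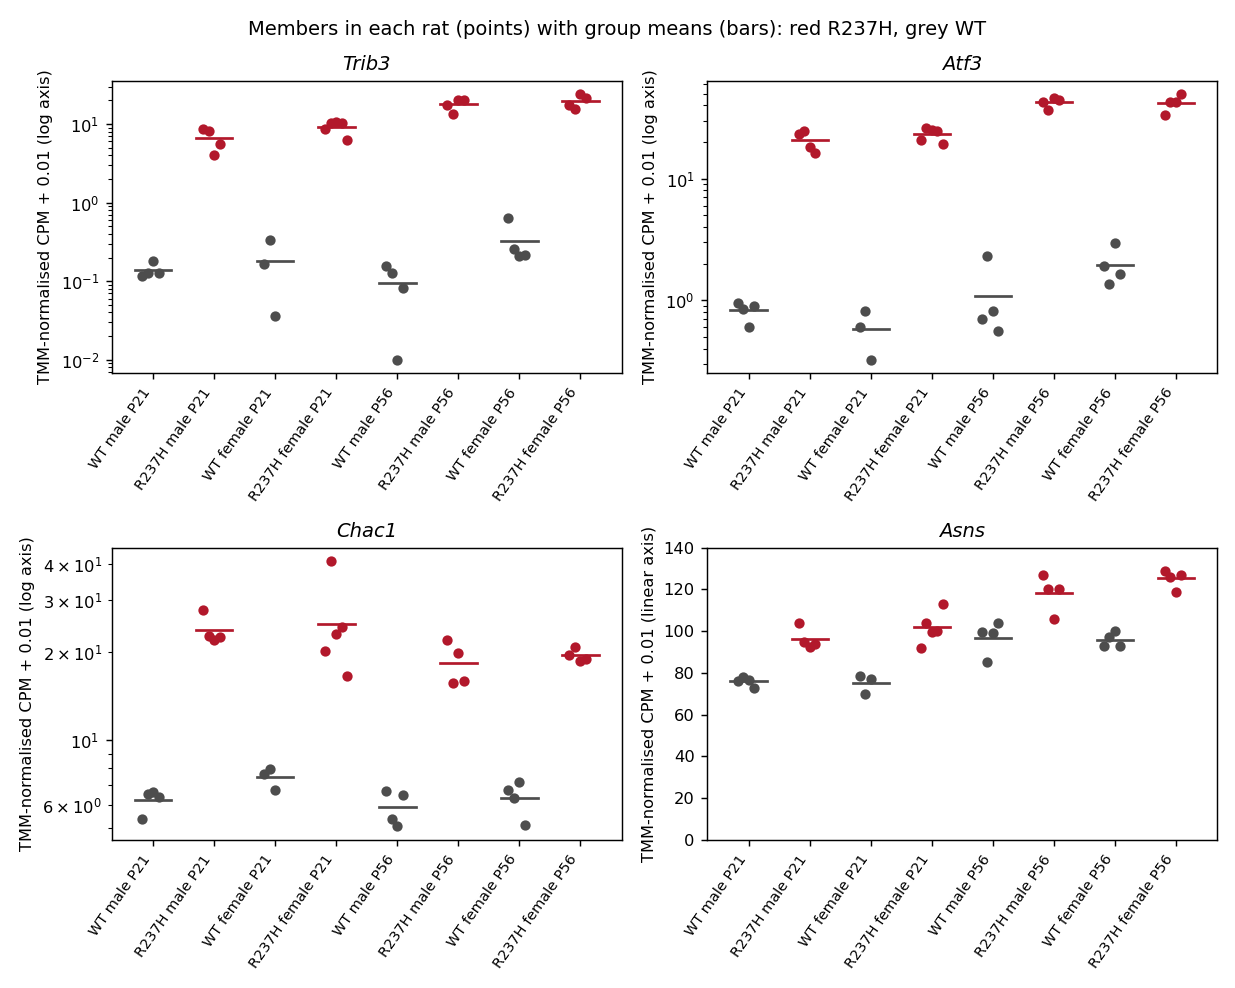
Each point is a rat and each bar a group mean of TMM-normalised CPM plus 0.01, on a log axis for Trib3, Atf3 and Chac1 and on a linear axis from 0 for Asns, with R237H in red and WT in grey. R237H rats of each sex and age lie above their WT controls in all 4 panels, far apart for Trib3 and Atf3 and close together for Asns, and the lowest Trib3 point is a rat with 0 counts.

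Chac1 was measurable in WT rats and its R237H group means were 3.06 to 3.81 times those of WT. WT males at P56 had 6.71, 5.35, 5.06 and 6.46 CPM and the R237H rats 21.9, 15.6, 19.8 and 15.9 CPM. In females at P56 the WT rats had 6.73, 6.35, 7.2 and 5.11 CPM and the R237H rats 19.5, 20.8, 18.6 and 18.9 CPM. The sexes overlapped in both genotypes. At P21 the WT males had 5.38, 6.52, 6.65 and 6.36 CPM and the R237H males 27.9, 22.6, 21.9 and 22.5 CPM. The WT females at P21 had 7.67, 7.95 and 6.73 CPM and the R237H females 20.2, 40.9, 23.1, 24.3 and 16.5 CPM. The R237H female at 40.9 CPM was the highest of all rats, and the groups did not overlap in any comparison.

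The log2 fold change of Chac1 was 1.66 (SE 0.16, FDR = 2.97e-05) in males and 1.60 (SE 0.13, FDR = 5.21e-06) in females at P56, and 1.94 (SE 0.10, FDR = 5.25e-08) in males and 1.76 (SE 0.27, FDR = 0.00147) in females at P21. In females at P21 the call was lost without WT replicate 1, at an FDR of 0.0102.

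Asns was abundant in every rat and moved least. WT males at P56 had 99.8, 85.1, 98.9 and 104 CPM and the R237H rats 127, 120, 106 and 120 CPM. In females at P56 the WT rats had 92.9, 97, 100 and 92.9 CPM and the R237H rats 129, 126, 119 and 127 CPM. The highest WT male, at 104 CPM, lay just under the lowest R237H male, at 106 CPM, and the gap was wider in females. At P21 the WT males had 76.3, 78.2, 76.6 and 72.9 CPM and the R237H males 104, 94.9, 92.4 and 93.7 CPM. The WT females at P21 had 78.4, 70.1 and 76.9 CPM and the R237H females 92, 104, 99.8, 100 and 113 CPM. All R237H rats at P21 were above all WT rats of that age.

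Asns was increased in 3 of the 4 comparisons. Its log2 fold change was 0.38 (SE 0.07, FDR = 0.00191) in females at P56, 0.35 (SE 0.05, FDR = 0.00041) in males at P21 and 0.45 (SE 0.09, FDR = 0.0059) in females at P21, while in males at P56 it was 0.31 (SE 0.09, FDR = 0.0188) and was not called. The calls in females were weak. At P56 the FDR was 0.0103 without WT replicate 1, and at P21 it was over the threshold without any of the 3 WT rats or without R237H replicates 2, 3 or 4 (highest FDR 0.0472).

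**Figure D2:**
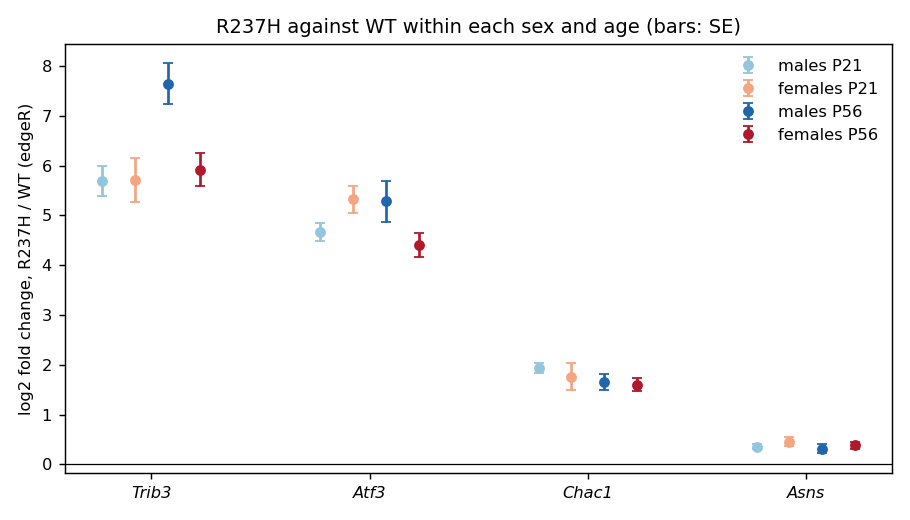
Points are edgeR log2 fold changes of R237H against WT for the 4 genes in each comparison, and bars are SE. Trib3 lies between 5.69 and 7.64, Atf3 between 4.40 and 5.32, Chac1 between 1.60 and 1.94 and Asns between 0.31 and 0.45.

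Counted together, the 4 genes were increased in 15 of 16 member comparisons, with 3 of 4 called in males at P56 and 4 of 4 in each of the others. Over all genes tested, males had 16.8% increased at P56 and 12.4% at P21, and females 17.0% and 7.06%. None of the members was decreased, against 11.1% of genes in males and 11.1% in females at P56, 4.82% in males and 0.753% in females at P21. Every R237H rat was above every WT rat for all 4 members in all 4 comparisons, a separation seen for 24.2% of genes in males and 22.2% in females at P56, and for 17.1% in males and 14.6% in females at P21. Since the Extended Data tables chose the members on the same comparisons, nothing is read from the distance between these counts and the background.

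The 8 group means of Trib3 ran from 19.7 ± 3.8 CPM (SD, n = 4) in R237H females at P56 and 17.8 ± 3.21 (n = 4) in R237H males at P56, through 9.24 ± 1.85 (n = 5) in R237H females and 6.62 ± 2.14 (n = 4) in R237H males at P21, to the 4 WT groups at 0.0841 to 0.319. The order had 2 places at which neighbouring groups did not overlap, between the ages in R237H rats and between R237H males at P21 and WT females at P56. Atf3 had its gaps at the same places, with means of 42.4 ± 4.14 and 42 ± 6.41 CPM in R237H males and females at P56, 23.1 ± 2.91 in R237H females and 20.6 ± 4.02 in R237H males at P21, and 0.571 to 1.96 in WT groups.

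Chac1 had the opposite order of ages among R237H rats, with 25 ± 9.36 CPM in females and 23.7 ± 2.83 in males at P21, then 19.4 ± 0.957 in females and 18.3 ± 3.1 in males at P56, and R237H males at P21 did not overlap R237H females at P56. The WT means of Chac1 lay between 5.9 and 7.45 CPM, and their ranges overlapped from each group to the next. For Asns the R237H rats at P21 (96.3 ± 5.25 CPM in males, 102 ± 7.78 in females) stood at the level of the WT rats at P56 (97 ± 8.24 in males, 95.7 ± 3.52 in females), and the R237H rats at P56 were highest at 118 ± 8.49 and 126 ± 4.32. The ratio of R237H to WT means of Asns was 1.22 to 1.36 over the 4 comparisons.

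Between the ages, Trib3 in R237H rats was 2.68 times as high at P56 as at P21 in males and 2.13 times in females, without overlap, while the WT ratios were 0.661 and 1.89 on overlapping ranges. Atf3 was 2.06 and 1.82 times as high at P56 in R237H males and females, without overlap, and in WT rats 1.33 times in males, with overlap, and 3.43 times in females, without. The ratio in WT males was 0.836 when the rat at 2.29 CPM was left out. Chac1 in R237H rats was at 0.77 times its P21 level in males and 0.778 times in females, and the ages overlapped. Asns was higher at P56 in both genotypes, by 1.28 times in WT males, 1.27 in WT females and 1.23 in R237H rats of each sex. Since each age was a collection of its own, an effect of age and one of collection cannot be told apart.

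Whether the difference between the genotypes changed with age was tested as an interaction within each sex. None of the 4 genes passed, against 10.1% of all genes in males and 2.15% in females. Of the 4 genes Trib3 had the largest estimate, a log2 difference of +1.93 (SE 0.61, FDR = 0.0328) in males, higher at P56. It passed by the likelihood-ratio test (FDR = 0.00585) and by DESeq2 (FDR = 0.00454), and FDR values over its alternatives with all rats ran from 0.00144 to 0.0471. With single rats left out it did not pass, at 1.57 to 2.30 with FDR values of 0.0245 to 0.0832. In females the estimate was +0.22 (SE 0.64, FDR = 0.88). Atf3 had +0.60 (SE 0.44, FDR = 0.343) in males and -0.91 (SE 0.35, FDR = 0.127) in females, and the value in males rose to 1.30 (FDR = 0.00264) without the WT male at 2.29 CPM. Chac1 had -0.30 (SE 0.19, FDR = 0.271) and -0.15 (SE 0.29, FDR = 0.819), and Asns -0.06 (SE 0.11, FDR = 0.74) and -0.07 (SE 0.11, FDR = 0.775).

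Whether the difference changed with sex was tested within each age, and edgeR called 0% of genes at P56 and 0% at P21, with 310 and 458 genes at an unadjusted p under 0.05. DESeq2 and the likelihood-ratio test also called 0. At P21 all males shared a number in their sample titles that no female had, so sex and that number cannot be told apart there. For Trib3 at P56 the log2 difference was +1.68 (SE 0.59, FDR = 0.999), larger in males, on R237H means of 17.8 and 19.7 CPM and WT means of 0.0841 and 0.319 CPM in males and females. The estimate for Atf3 was +0.85 (SE 0.45, FDR = 0.999) at P56, with 1.55 (FDR = 0.678) without the WT male at 2.29 CPM, and -0.66 (SE 0.31, FDR = 1) at P21.

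Levels of different genes were compared per length, in the TPM values the authors deposited. In all 15 WT rats and in all 9 R237H rats at P21 the order within a rat was Asns, Chac1, Atf3, Trib3. In the 8 R237H rats at P56 Atf3 stood above Chac1, and in 1 rat of each sex Trib3 did as well. In R237H males Atf3 had 19.8 ± 3.92 TPM (SD, n = 4) at P21 and 47.4 ± 4.79 at P56, and Chac1 28.4 ± 2.65 and 25.6 ± 4.66. In females Atf3 had 21.6 ± 3.24 TPM (n = 5) at P21 and 45.1 ± 11 (n = 4) at P56, and Chac1 28.7 ± 8.28 and 25.8 ± 3.12. The gene with the smallest fold change had a large absolute difference. At P21 Asns was 14.6 TPM higher in R237H than in WT males, beside 6.4 TPM for Trib3, 19 for Atf3 and 20.9 for Chac1. TPM values at P56 carry a shift of all genes, whose median log2 difference between the genotypes was 0.40 for males and 0.26 for females in log2(TPM + 0.1), against -0.01 and -0.07 at P21, so TPM differences at P56 are not read, while the order within a rat does not depend on that scale.

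**Figure D3:**
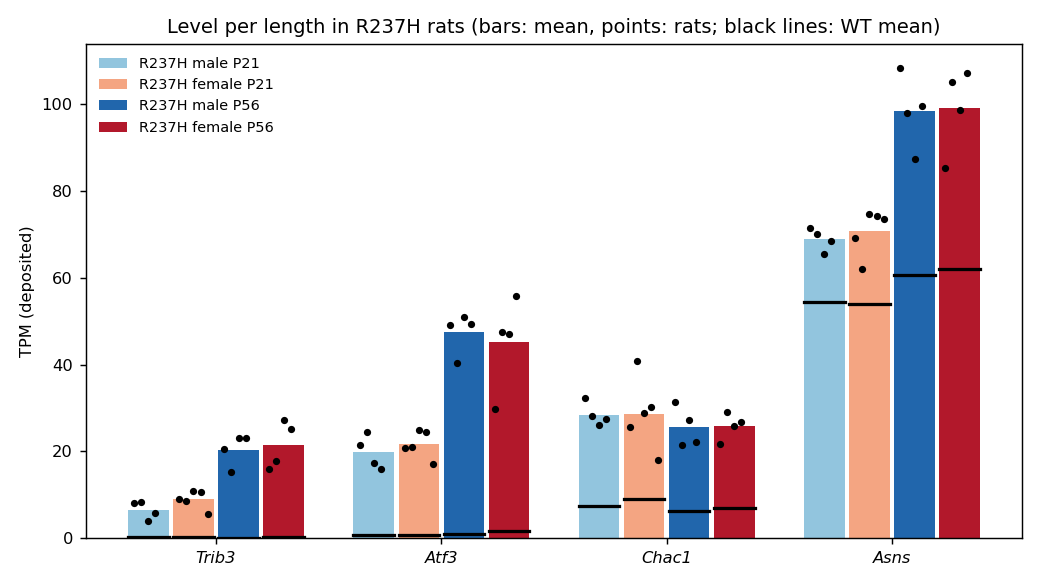
Bars are mean TPM per length in the 4 groups of R237H rats, points are rats and black lines are the mean of the WT group of the same sex and age. Within each age the bars can be set against each other, and those of Atf3 (19.8 and 21.6 TPM at P21, 47.4 and 45.1 TPM at P56) stand below those of Chac1 (28.4 and 28.7 TPM) at P21 and above them (25.6 and 25.8 TPM) at P56, while heights at different ages are not on one scale.

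The spread of the members differed. The biological coefficient of variation that edgeR estimated in males at P56 was 22.1% for Trib3, 36% for Atf3, 17.5% for Chac1 and 10.9% for Asns, beside a median of 17.3% over all genes. In males at P21 it was 22.5%, 14.6%, 9.78% and 6.1%, beside a median of 8.94%. In females at P56 it was 24.1% for Trib3, 20.8% for Atf3, 13.8% for Chac1 and 9.19% for Asns (median 15.6%), the same order as in males at P21. In females at P21 it was 25.3%, 17.5%, 24.8% and 10% (median 15.3%), with Chac1 above Atf3.

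Other genes of the response were taken from 6 hand-written lists, with the members left out. Of 80 listed genes 37 had an identifier, and all 37 were tested. At P56 in males 29 were increased, 1 was decreased and 7 were not called, with a median log2 fold change of 1.07. Females of that age had 30, 1 and 6 (median 1.06). At P21 the counts were 34, 1 and 2 for males (median 0.56) and 24, 1 and 12 for females (median 0.60). All genes tested had medians between -0.034 and -0.006. Genes with a symbol are the fitting comparison, and of these 57.4%, 59.8%, 53.5% and 32.8% were increased, in the same order of comparisons, with medians of 0.92, 0.89, 0.45 and 0.50. The 37 genes held 22 that were increased in all 4 comparisons, beside 27.7% of the 3184 genes with a symbol that were tested in all 4, and nothing is read from the distance. In females at P21 the count of increased genes fell to 13 without WT replicate 2 and to 15 without WT replicate 1. The shares of genes with a symbol are also the background of each list below, and nothing is read from those distances.

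Of the 10 regulators listed, counted with Trib3 and Atf3, 6 had an identifier, and 5 were increased in each sex at P56 and 6 in each sex at P21. Ppp1r15a, which encodes the GADD34 subunit that takes the phosphate off eIF2, stood nearest to Trib3 and Atf3 in size. Its log2 fold change was 5.19 (SE 0.61, FDR = 0.000112) in males and 4.60 (SE 0.66, FDR = 0.000342) in females at P56, and 4.52 and 5.61 in males and females at P21, all called. The transcription factor gene Atf5, itself under translational control by eIF2, rose by 1.48 in males and 1.5 in females at P56 and by 0.94 and 1.08 at P21. Cebpg, a C/EBP partner of ATF4, rose by 1.17 and 1.04 at P56 and by 0.40 and 0.60 at P21. Cebpb rose at P21, by 0.83 in males and 1.17 in females, and had 0.37 (FDR = 0.293) and 0.51 (FDR = 0.157) at P56, a difference between the ages that was not tested. Of the sensors and the eIF2 machinery, 3 of 14 genes had an identifier. Eif2ak2, the kinase PKR, rose by 1.07 in males at P56, and Oma1, a mitochondrial protease that starts the response, by 1.07, while Eif2b2, a subunit of the eIF2 exchange factor, had 0.26 (FDR = 0.0364). Males at P21 were the only group in which Eif2b2 was called, at 0.31 (FDR = 0.00446).

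The enzyme list, counted with Asns and Chac1, had 10 of 15 genes with an identifier, of which males had 8 increased at P56 and 9 at P21, and females 9 and 7. The mitochondrial folate enzyme gene Aldh1l2 rose most, by 4.43 (SE 0.26, FDR = 1.71e-06) in males and 4.26 (SE 0.29, FDR = 2.09e-06) in females at P56 and by 2.51 and 2.60 at P21. Mthfd2, another mitochondrial folate enzyme, rose by 2.02 and 1.96 at P56 and by 1.12 and 1.19 at P21. Cth, which makes cysteine from cystathionine, rose by 1.41 in males at P56, Shmt2 of the serine to glycine step by 1.02 and Pck2, the mitochondrial PEP carboxykinase, also rose in that comparison. Cbs, the enzyme before Cth in cysteine synthesis, was the gene that fell in every comparison, with log2 fold changes of -0.89 (SE 0.19, FDR = 0.00365) in males and -0.93 (SE 0.18, FDR = 0.00226) in females at P56, and -0.64 and -0.89 at P21.

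Amino acid transporters had 7 of 10 genes with an identifier, of which each sex had 6 increased at P56, while at P21 males had 7 and females 5. The glutamine carrier Slc1a5 rose by 3.80 (SE 0.25, FDR = 3.09e-06) in males at P56, with 3.50 in females of that age, and 3.45 and 3.65 in the sexes at P21. Slc7a11, which imports cystine for glutathione synthesis, rose by 3.19 and 2.73 in males and females at P56 and by 1.44 and 1.55 at P21. Its partner chain Slc3a2 rose by 1.77 in males at P56, the cationic carrier Slc7a3 by 2.09, the leucine carrier Slc7a5 by 1.19 and the glutamine carrier Slc38a1 by 0.67.

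The cytosolic tRNA synthetases had the lowest median of the 6 lists in males at P56 (0.46). Of their 9 genes, males had 5 increased at P56 and 8 at P21, and females 6 and 4. The shares of genes with a symbol were 57.4% and 53.5% in males and 59.8% and 32.8% in females, and nothing is read from the distance. Eprs1, which charges glutamate and proline, rose by 1.65 in males and 1.58 in females at P56 and by 0.95 and 1.13 at P21. In males at P56 Lars1 rose by 0.78, Wars1 by 0.53 and Rars1 by 0.45, and Vars1 had 0.46 (FDR = 0.0294). Vars1 was called in males at P21 alone, at 0.56 (FDR = 0.000219).

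Of the other targets, all 6 genes with an identifier were increased at P56 in each sex, and 5 in males and 4 in females at P21. Gdf15, a secreted stress cytokine, rose by 5.31 (SE 0.68, FDR = 0.000198) in males at P56, by 5.27 in females of that age, and at P21 by 5.31 in males and 6.09 in females. Stc2, a secreted glycoprotein, rose by 4.55, 4.90, 4.35 and 4.66 in the same order of groups. Sesn2, a leucine sensor upstream of mTORC1, rose by 1.24 in males at P56, the autophagy receptor Sqstm1 by 1.09 and the tRNA export factor Xpot by 0.42. Bcl2l11, which encodes the pro-apoptotic protein BIM, rose by 1.59 in males and 1.55 in females at P56, and had -0.10 (FDR = 0.502) and 0.11 (FDR = 0.694) at P21. The change of Bcl2l11 with age was not tested.

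**Figure D4:**
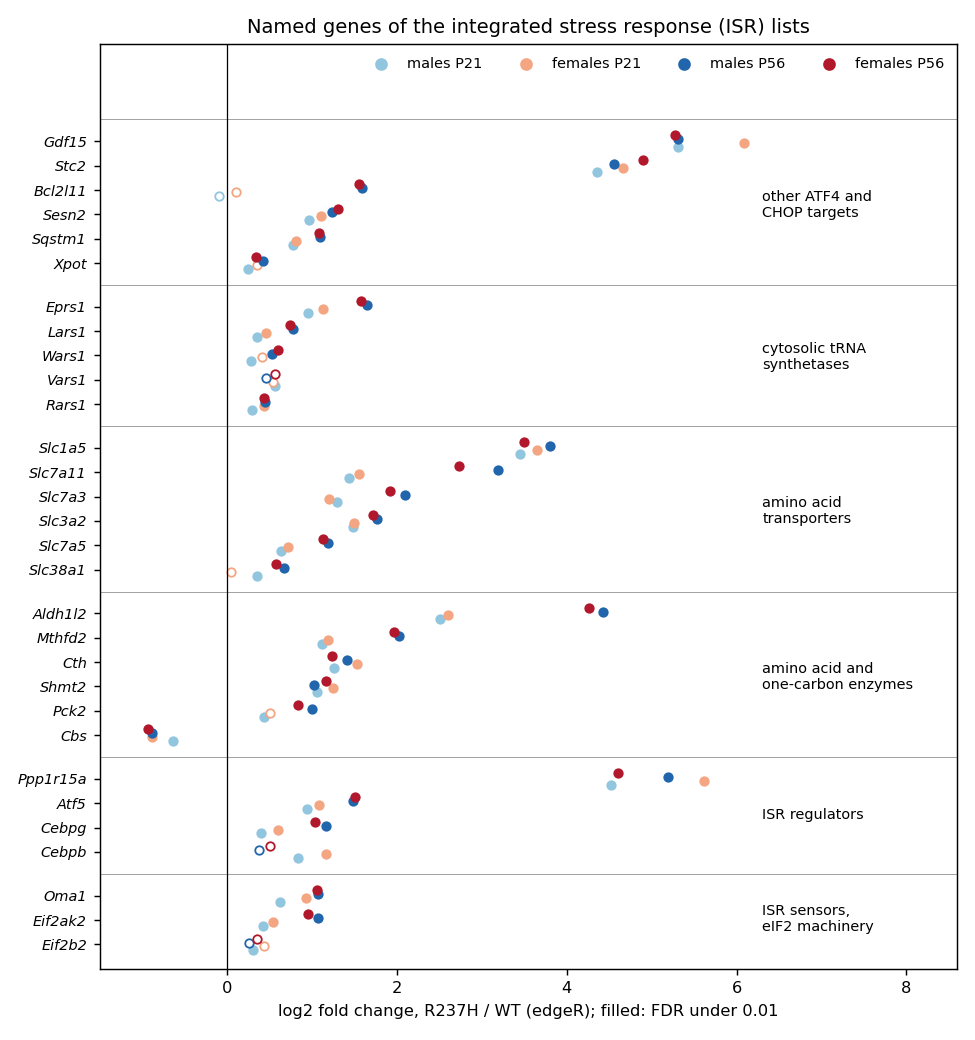
Points are edgeR log2 fold changes of R237H against WT for 30 genes of the lists that the text names, by list, in the 4 comparisons, filled where the FDR was under 0.01. Ppp1r15a, Gdf15 and Stc2 stand above 4 in all comparisons and Aldh1l2 does so at P56, the tRNA synthetases other than Eprs1 lie under 1, and Cbs lies below 0 throughout.

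For the other arms of the unfolded protein response the background is again the genes with a symbol, whose medians and shares are given above, and nothing is read from the distance. Of 22 listed ATF6 and IRE1 genes 7 had an identifier, of which each sex had 5 increased at P56 (medians 0.79 in males, 0.68 in females), while at P21 males had 4 (median 0.30) and females 2 (median 0.50). Edem1, which feeds misfolded protein to degradation, rose by 1.48 in males at P56, the chaperone gene Sdf2l1 by 1.19, the sensor Ern1 (IRE1) by 1.11, the sensor Atf6 by 0.79 and the disulphide isomerase Pdia4 by 0.77. Manf, a secreted ER protein, had 0.43 (FDR = 0.0452). Of the family of Trib3, Trib1 had an identifier and rose by 1.97 in males and 1.85 in females at P56 and by 0.85 and 1.11 at P21, and Trib2 had none. Of the wider ATF and CREB family, Batf, a factor of lymphoid and myeloid cells, rose by 3.80 in males at P56, and Creb3l1, an ER stress sensor, had 0.60 (FDR = 0.0217). Creb3l1 was called in males at P21, at 0.98 (FDR = 7.05e-05), and not in females of either age.

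The genes whose 8 group means were most like those of each member were found among 2951 genes with a symbol and a mean of at least 1 TPM, by the mean absolute difference of centred group means of log2(TPM + 0.1), which includes the P56 shift. Among the nearest to Trib3 were Lgals3 (0.14), which encodes galectin-3, and the haem oxygenase gene Hmox1 (0.22), with Atf3 at place 10 (0.41). Nearest to Atf3 were the chemokine genes Cxcl10 (0.19) and Cxcl1 (0.20) and Gdf15 (0.22), with Trib3 at place 14. Nearest to Chac1 were Rora (0.06), Trim47 (0.09) and Il17rb (0.13), and to Asns Prmt2 (0.03), Rpl28 (0.03) and Ikzf4 (0.04). These are descriptions over 8 group means of the same rats.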

How the data were processed

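Polyadenylated RNA of 32 rat hippocampi was sequenced as stranded libraries. The authors made base calls with bcl2fastq 2.20.0.422 per the labels, ran Skewer for trimming, STAR for alignment and RSEM for quantification. The genome build and annotation are not given in the sources used here. They deposited RSEM expected counts, which divide a read among the genes it fits (5.68% of values were not whole), and TPM values, which are scaled by length and within each rat. Totals of counts ran from 21580397 to 55544871 (median 46157271), and the lowest 2, both from R237H males, were 21580397 and 25420919. At this depth a WT rat had 0 to 27 counts of Trib3, which limits its fold changes, and the limit given for 0 counts (3 counts) covers counting error only.

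Counts were rounded, filtered with filterByExpr, TMM-normalised and tested with the quasi-likelihood F-test of edgeR 4.0.16 under R 4.3.3, of R237H against WT within sex and age and of 4 interactions, with Benjamini-Hochberg FDR over all genes tested and a threshold of 0.01. SE values are the estimate divided by the root of F. Nothing in the labels names the source of each replicate beyond the rat, and p-values measure the spread between these rats. Results were recomputed with DESeq2 1.42.0, with the likelihood-ratio test, with size factors by RLE, without the filter or with a minimum of 10 counts per rat, with limma 3.58.1 on log2(TPM + 0.1) and log2(TPM + 1), at an FDR of 0.05, in a joint model of all rats, with a replicate block by title number, and leaving out single rats. TPM centred on the median gene of each rat was added after seeing the data. Rats sharing a title number correlated by -0.02 to 0.22 in 4 pairs of males at P56, beside -0.25 to 0.31 in 12 other pairs. The mean was 0.27 against -0.04 in females at P56 (2 and 14 pairs), and 0.15 against -0.04 in females at P21 (3 and 12 pairs). The number has no stated meaning and was not taken to pair the rats, a choice these correlations do not settle. Males at P21 all carried the same number, so their p-values hold no spread between numbers.

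Fits were tested on simulated data with known answers.

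Members and lists were chosen with earlier results of these data known. Named genes are the members, Gfap, up to 6 genes of each stress list with the smallest FDR in males at P56 and those decreased there, and the 3 genes most like each member, with some of these genes left out of the text. Genes named beyond these were chosen after their values were seen. From the Extended Data tables the identifiers and symbols were taken, and their columns of the authors' own fold changes and FDR values were not used.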

Additional observations from a re-analysis of the deposited data

Results flagged for a closer look

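Within-group values of the 4 genes were screened by Dixon's test in groups of 4 or 5 rats, which picks about 1 in 20 such groups by chance, and 4 of 28 groups held a rat apart from the others. Trib3 in WT males at P21 had a highest value of 0.17 CPM with the next at 0.116, which is a step of a few counts. Trib3 in WT females at P56 had a highest value of 0.622 CPM with the next at 0.244. Atf3 in WT males at P56 had a highest value of 2.29 CPM with the next at 0.802, in the rat whose choroid plexus genes summed to 1807 CPM. Chac1 in R237H males at P21 had a highest value of 27.9 CPM with the next at 22.6. The causes were not tested.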

How the results depend on the processing

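Trib3, Atf3 and Chac1 kept their direction and their call in all 4 comparisons under every alternative that gave a value, except Chac1 in females at P21 without WT replicate 1 (log2 fold change 1.5 to 1.88 over the rats left out, FDR up to 0.0102). Trib3 had no value with at least 10 counts in every rat. Asns depended on the processing, and the cause was not tested. In males at P56 it was called at 0.71 (FDR = 0.00367) on log2(TPM + 0.1) and 0.70 (FDR = 0.00342) on log2(TPM + 1). Both values carry the shift of all genes, with medians of 0.40 and 0.31 there, and are not read as a difference of Asns. It was also called with all 32 rats in one model, at 0.28 (FDR = 0.00096), and on TPM centred on the median gene it had 0.15 (FDR = 0.24). In females at P21 it was not called on the 3 TPM scales, at 0.39 (FDR = 0.0485), 0.39 centred (FDR = 0.0242) and 0.38 (FDR = 0.044), and it ranged from 0.40 to 0.49 over the rats left out. In females at P56 that range was 0.36 to 0.40.

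Counts of decreased genes moved most. In males at P56 the 1677 became 2609 with DESeq2, 183 and 187 on log2(TPM + 0.1) and log2(TPM + 1), 2622 on centred TPM, 2865 at an FDR of 0.05 and 2941 in one model, with 928 to 1989 over the rats left out. The share of higher calls moved with that scale, with 2531 genes increased by edgeR, 3680 on log2(TPM + 0.1) and 2053 on centred TPM. In females at P56 the 1676 decreased became 277 and 281 on the TPM scales, 2565 centred, 3063 at an FDR of 0.05 and 2547 in one model (1006 to 1603 with a rat left out), and the 2550 increased became 3687 on log2(TPM + 0.1) and 2122 centred. In males at P21 the 721 decreased became 1239 with DESeq2, 438 and 446 on TPM, 1356 centred, 1672 at an FDR of 0.05 and 180 in one model (337 to 890), beside 1847 increased by edgeR and 1492 on centred TPM. In females at P21 the 114 decreased became 252 by the likelihood-ratio test, 351 with DESeq2, 69 and 74 on TPM, 371 at an FDR of 0.05 and 298 in one model (36 to 185), and the 1070 increased became 1644 at an FDR of 0.05 (621 to 1169).

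The interaction of Trib3 with age in males was called by the likelihood-ratio test (1.94), DESeq2 (1.96), log2(TPM + 0.1) (2.08) and centred TPM (1.60). The 1555 genes called in males became 2533 with DESeq2 (932 to 2163 with a rat left out), and the 333 in females became 776 by the likelihood-ratio test, 971 with DESeq2, 880 on TPM and 731 in one model (130 to 468). Uncalled interactions changed sign on log2(TPM + 0.1) for Asns (0.37) and Chac1 (0.12) with age in males, Asns (0.29) and Chac1 (0.27) with age in females and Asns with sex at P56 (0.03), and on centred TPM for Chac1 with sex at P56 (-0.01). The shift of all genes on log2(TPM + 0.1) had a median of 0.40 for age in males, 0.31 for age in females and 0.13 for sex at P56. At P21 1 gene was called for sex on TPM and 1 on centred TPM. Over the rats left out, the age interaction ran from -0.12 to 0.02 for Asns and 0.38 to 1.30 for Atf3 in males, and from -0.62 to 0.76 for Trib3, -0.10 to 0.01 for Asns and -0.26 to 0.10 for Chac1 in females, and the sex interaction from -0.08 to 0.11 for Chac1 and 0.57 to 1.55 for Atf3 at P56 and -0.88 to 0.43 for Trib3 at P21.

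With a replicate block by title number, a number without a stated meaning, decreased genes were 1106 in males at P56, 421 in females at P56 (1370 increased) and 280 in females at P21, and Asns in females at P56 was not called at 0.36 (FDR = 0.109). The block changed no other call of a member, and males at P21 all carry 1 number. Same-numbered rats correlated by 0.07 to 0.47 in females at P56 and by 0.02 to 0.39 in females at P21. Of 994 counts over the stress lists, 74 moved by more than 1.5 times.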
